A study of Mus musculus with 6 samples.

Results

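The 43 genes described here encode lysosomal hydrolases, their activators and lysosomal membrane proteins. They were chosen by gene symbol, and all 43 had a row among the 15443 gene symbols of the deposited table. All 43 also passed the filter used for testing, a mean of at least 5 normalized counts over the 6 libraries, which 13543 genes passed. The set was drawn up with the results of the control against midkine comparison known. Differences between these groups are therefore given as a description of the genes and carry no test of the set.

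The cultures were started with marrow flushed from C57BL/6J wild-type mice and kept for 3 days. All cultures held FLT3LG at 50 ng/ml, a cytokine that drives dendritic cell growth from marrow progenitors. The control libraries (replicates 1, 2 and 4) had no further addition, and the midkine libraries (replicates 3, 4 and 5) received recombinant human midkine, a heparin-binding growth factor, at 10 ng/ml. The whole culture was sequenced without a sort, and the sources used here give neither age nor number of the mice. The labels do not state whether replicates were separate mice or separate cultures. Every test therefore measures only the spread between the libraries, which may be technical. In such bulk RNA, a change in the number of cells of a type and a change in RNA per cell cannot be told apart.

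Lysosomes are acidic organelles that break down proteins, glycans and lipids delivered by endocytosis, phagocytosis and autophagy. Most soluble hydrolases are tagged with mannose 6-phosphate in the Golgi and carried to lysosomes by receptors, while the membrane proteins are sorted by signals in their cytosolic tails. In macrophages and dendritic cells the same enzymes degrade dead cells and cut antigens for presentation on MHC class II. Many lysosomal genes share an E-box element in their promoters, which is bound by transcription factors of the MiT family such as TFEB, TFE3 and MITF.

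Stretches of 4 promoters are shown because they carry that element in genes whose levels are given below. They come from RefSeq on GRCm38.p6, run 5′ to 3′ on the strand of the gene and end at or before a RefSeq start of the gene. Exons annotated by GENCODE M21 were left out. Capitals mark TCACGTG or its reverse complement CACGTGA. Lamp1 is chr8:13159011-13159160 on the plus strand, Lgmn is chr12:102439093-102439242 on the minus strand before the second of its RefSeq starts, Gaa is chr11:119267737-119267886 on the plus strand and Arsa is chr15:89477426-89477541 on the minus strand.
Lamp1: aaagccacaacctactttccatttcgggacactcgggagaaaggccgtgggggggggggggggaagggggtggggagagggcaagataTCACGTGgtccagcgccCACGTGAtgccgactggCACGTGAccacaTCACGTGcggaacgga
Lgmn: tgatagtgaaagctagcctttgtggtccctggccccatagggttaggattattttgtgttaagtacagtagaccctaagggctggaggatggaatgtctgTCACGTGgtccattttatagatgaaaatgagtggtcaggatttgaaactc
Gaa: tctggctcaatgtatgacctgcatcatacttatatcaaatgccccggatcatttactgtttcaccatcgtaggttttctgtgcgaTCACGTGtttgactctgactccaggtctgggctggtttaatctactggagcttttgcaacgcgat
Arsa: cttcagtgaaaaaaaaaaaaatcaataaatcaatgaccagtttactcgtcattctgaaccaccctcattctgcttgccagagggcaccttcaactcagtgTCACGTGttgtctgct

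The Lamp1 stretch held 4 matches within 150 bases, and those of Lgmn, Gaa and Arsa held 1 each. Promoter windows of 250 bases before to 50 bases after the start were found for 37 of the 43 genes, without Ctsb, Ctsh, Ctse, Galns, Asah1 and Npc1. TCACGTG, searched on both strands, was in a window of 13 of these 37 genes (35.1%). It was in a window of 684 of 9582 tested genes with a window (7.14%), and in 3.77% of all 32851 windows, whichever gene they belong to. The shorter CACGTG, which every TCACGTG match contains, was in 15 of 37 (40.5%) against 11.9% of tested genes. The full palindromic CLEAR element, which adds bases on both sides of CACGTG, was in 0 of 37 genes and in 0.835% of tested genes. GAGGAAGT, a sequence typical of sites of the myeloid factor PU.1 and also searched on both strands, was in 4 of 37 (10.8%) against 4.21% of tested genes. By role, TCACGTG was in 4 of 11 glycosidase genes, 3 of 4 genes of the non-cysteine proteases and thiol reductase, 2 of 4 sulfatase genes, 3 of 8 membrane protein genes, 1 of 6 cysteine protease genes and 0 of 4 genes of lipid breakdown. The cysteine protease gene was Lgmn, whose match lies inside the annotated gene. The window at its other RefSeq start, further upstream, held no match. A match is a description of these letters and shows no binding.

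Libraries held 5985684 to 7233960 reads recovered from the deposited values. In a principal component analysis of all genes tested, midkine 5 scored 86.0 on component 1 (57.1% of the variance) and the other 5 libraries −28.2 to 1.94. It was also low in mitochondrial ribosomal RNA, at 0.377% of reads (Wilson 95% interval 0.372 to 0.381%), where the others held 4.12 to 6.16%. Results are therefore given with and without this library. Transcripts of leukocyte genes such as Ptprc, Coro1a, Cd52 and Lcp1 were present in every library. Their summed level was 17700 to 18431 normalized counts in control and 14859 to 19896 with midkine. In midkine 5, Ptprc was at 1470 normalized counts (5636 to 6290 in the others) and Lcp1 at 5945 (6905 to 9699). Coro1a and Cd52 were highest in midkine 5, at 1933 and 5511.

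Transcripts of the 43 genes took between 2.56 and 4.22% of the reads of each library. Their share of reads was 2.80 ± 0.261% without and 3.92 ± 0.318% with midkine (mean ± SD over the 3 libraries of a group, as for all values with ± unless SE is named). The lowest share was 2.56% in control 4 (Wilson 95% interval 2.55 to 2.58%) and the highest 4.22% in midkine 4 (4.20 to 4.23%). Shares did not overlap between the groups, whose ranges were 2.56 to 3.08% and 3.58 to 4.22%. The summed level of the genes was 1.43 times as high in midkine as in control libraries, and 1.47 times without midkine 5. With quantile normalization, which gives every library the same distribution of values, the ratio was 1.17.

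**Figure D1:**
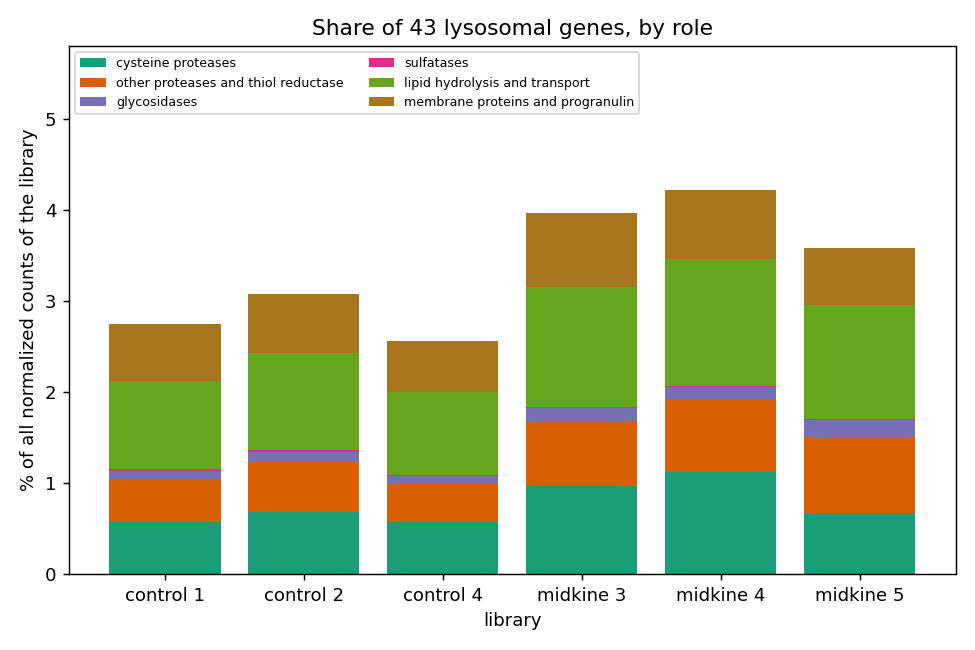
Share of each library's normalized counts (%, vertical axis) taken by the 43 lysosomal genes in the 6 libraries (horizontal axis), stacked by role. The 3 midkine libraries lie between 3.58 and 4.22%, above the 3 controls, between 2.56 and 3.08%; lipid genes and proteases make up most of each bar.

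The libraries hold 1 fragment per transcript near its 3′ end, so levels of different genes were compared as normalized counts without scaling to length. Levels of the 43 genes spanned a mean of 13.4 (Ctsf) to 54920 normalized counts (Psap), with a median of 791, against a median of 117 over all genes tested. Of the genes, 8 were among the 100 with the highest mean, and 20 among the highest 1000. Psap, Ctsd and Ctss led in that order in each of the 6 libraries, and together took 52.1 to 57.2% of the summed level. Psap alone took 25.7 ± 0.249% of it in control and 26.0 ± 2.33% in midkine libraries. The spread between control libraries was close to that of other genes, as the median coefficient of variation was 11.2% over the 43 genes and 11.3% over all genes tested.

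**Figure D2:**
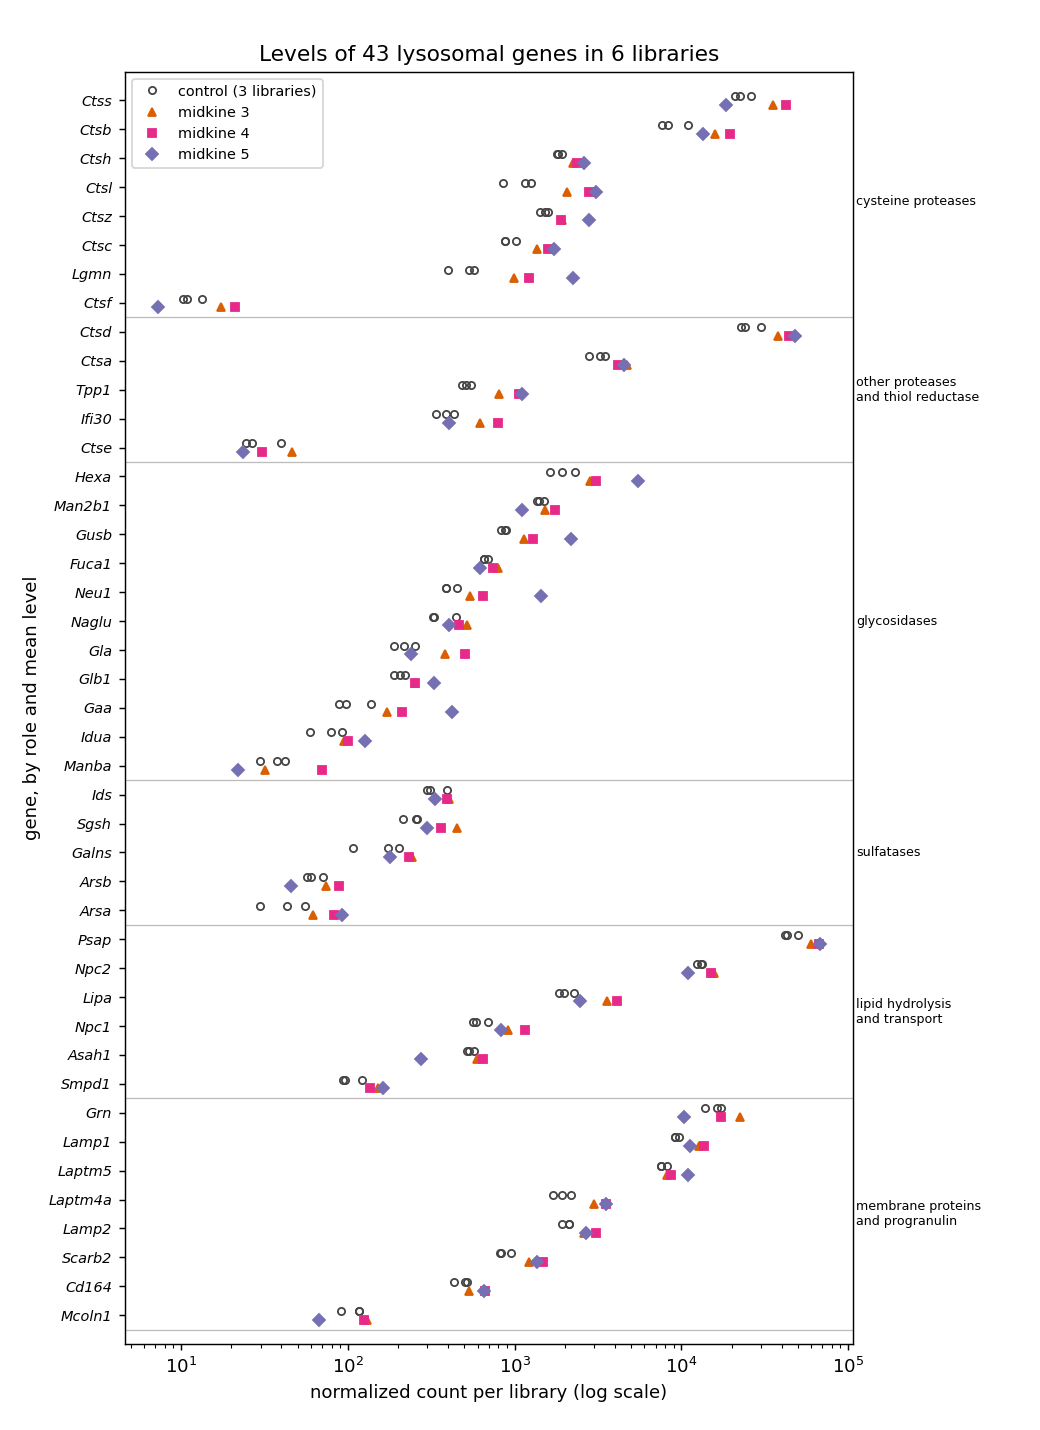
Normalized counts (horizontal log axis) of each of the 43 genes (vertical axis, by role and mean level) in the 3 control libraries (open circles) and in midkine 3, 4 and 5 (filled symbols). Psap, Ctsd and Ctss have the highest levels, and Ctsf, Ctse and Manba the lowest; the diamonds of midkine 5 lie below the controls for Ctss, Grn, Npc2 and Asah1 and far above them for Lgmn, Hexa, Gusb and Neu1.

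Most of the genes had higher levels with midkine. In 27 of 43 genes (62.8%) all 3 midkine values lay above all 3 control values, and in 0 genes all lay below. Over all genes tested, groups were apart in this way in 30.8%, with 15.5% higher and 15.3% lower. The median log2 fold change, midkine minus control on the log2(normalized count + 1) scale, was 0.50 over the 43 genes and −0.00 over all genes tested. Fold changes were positive in 41 genes and negative in 2, and ranged from −0.20 (Asah1) to 1.50 (Lgmn). Set against the control mean, the median gene stood at 0.51, 0.58 and 0.44 in midkine 3, 4 and 5, and at −0.01, 0.11 and −0.11 in control 1, 2 and 4. As the genes were chosen with this contrast known, these shares support nothing beyond the values themselves.

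By the fit over all genes, 0 of 43 genes passed an adjusted p of 0.05 with all 6 libraries (limma, Benjamini-Hochberg, two-sided), as did 0% of all genes tested. The smallest adjusted p among them was 0.0757, for Ctsl. An unadjusted limma p under 0.05 was reached by 26 genes, all higher, against 19.7% of all genes tested (10.4% higher and 9.3% lower). edgeR on the recovered reads called 0 of 43, against 0.0738% of all genes tested (0.0443% higher and 0.0295% lower). DESeq2 called 15 of 43, all higher, against 5.92% of all genes with an adjusted p (3.97% higher and 1.95% lower). Without midkine 5, limma called 27 of 43 higher and 0 lower, against 18.4% of all genes tested (9.86% higher and 8.53% lower). Of these 27 genes, 22 were among those with no overlap between the groups in all 6 libraries. edgeR without midkine 5 called 28 of 43 higher and 0 lower, against 10.5% and 7.88%.

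**Figure D3:**
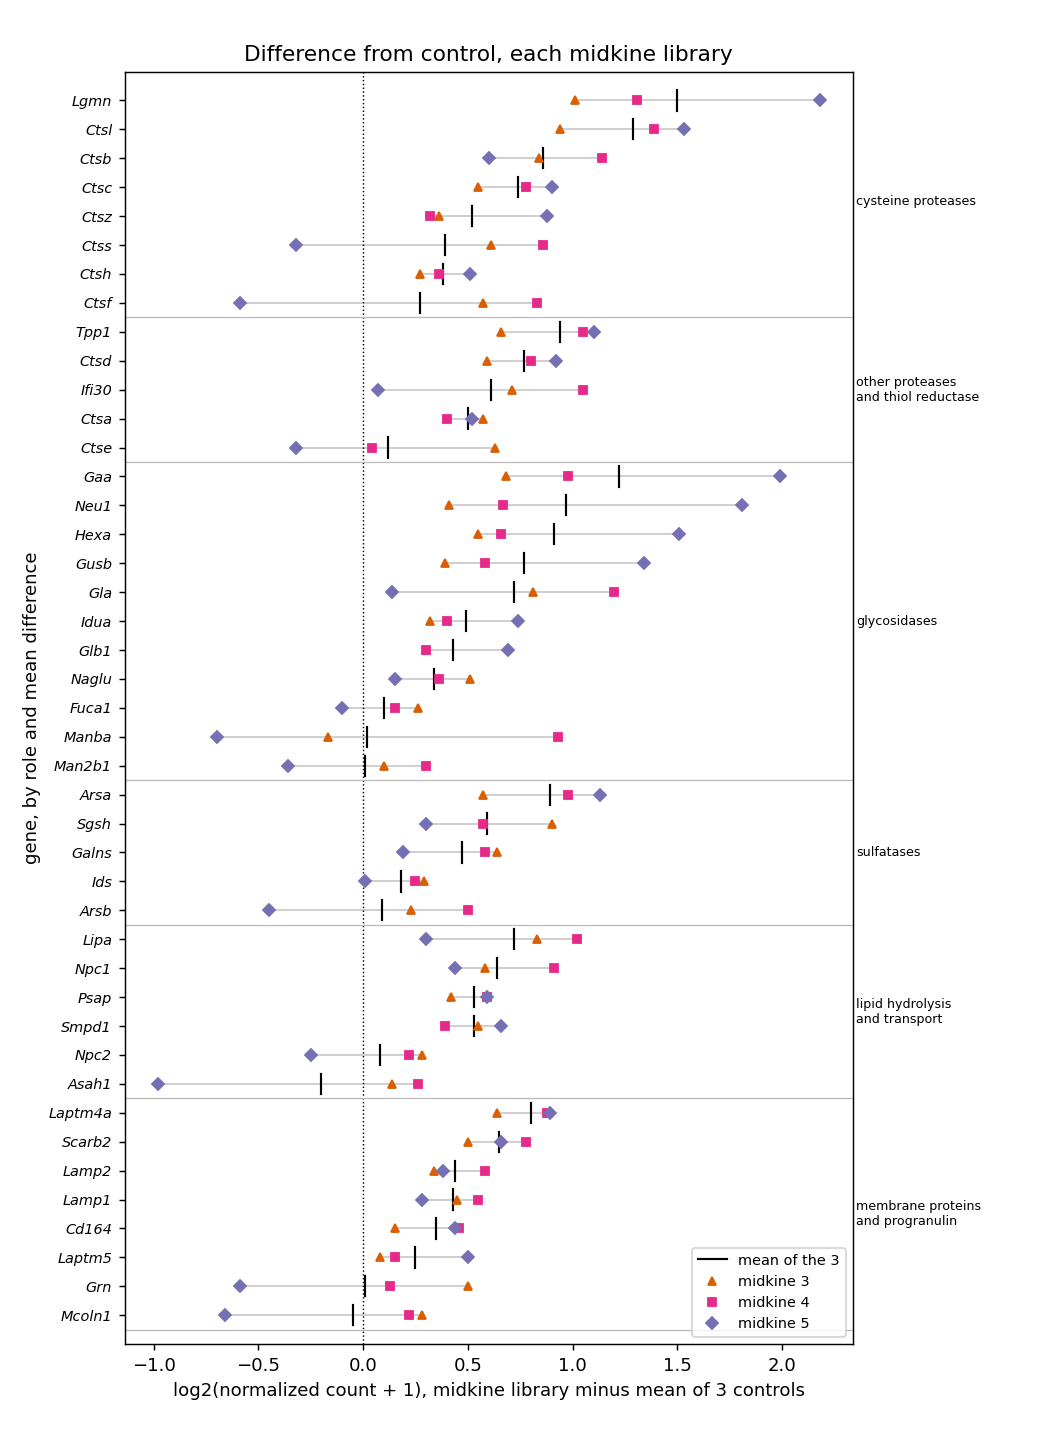
Difference of each midkine library from the mean of the 3 controls on the log2(normalized count + 1) scale (horizontal axis) for the 43 genes (vertical axis, by role), with black bars for the mean of the 3 libraries. Most symbols lie to the right of 0; for 10 genes midkine 5 lies to the left of 0 and midkine 3 and 4 to the right, and for Lgmn, Gaa, Neu1, Ctsl, Hexa and Gusb it lies to the right of both.

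Cysteine proteases of the lysosome cut proteins at acidic pH and process the invariant chain and antigens in antigen-presenting cells. As a group of 8 genes they had a median log2 fold change of 0.63 (0.72 without midkine 5), and 6 did not overlap between the groups, all higher with midkine, as were 15.5% of all genes tested. Lgmn encodes legumain, which cuts after asparagine and processes the precursors of cathepsins (chromosome 12, 102394084 to 102439813, minus strand of GRCm38). It had 530, 569 and 397 normalized counts in control 1, 2 and 4 and 996, 1228 and 2241 in midkine 3, 4 and 5. Every midkine value lay above every control value, and midkine 5 was far above the other libraries. The log2 fold change was 1.50 ± 0.297 (SE), and 1.16 without midkine 5.

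Ctsl encodes cathepsin L, an endopeptidase (chromosome 13, 64359337 to 64370890, minus strand). Its normalized counts were 1147, 850 and 1259 in control and 2058, 2813 and 3097 in midkine libraries, a log2 fold change of 1.29 ± 0.213 (SE). The groups were well separated, with control 4 the highest control and midkine 3 the lowest midkine library. Ctsb, which encodes cathepsin B, had 8261, 10917 and 7682 normalized counts in control and 15854, 19503 and 13422 in midkine libraries. These groups did not overlap either, and here midkine 5 was the lowest midkine library (log2 fold change 0.86 ± 0.207 SE). Exons of Ctsb and Ctsl overlap genes annotated on the other strand, as do those of 13 of the 43 genes in all, and exons of Ctsl, Ctsd and Glb1 overlap a gene on the same strand. The sources used here do not give the strand setting of the counting, so some of these reads may belong to the overlapping gene.

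Ctss encodes cathepsin S, the main protease for invariant chain in dendritic cells (chromosome 3, 95526786 to 95556403, plus strand). It had 21055, 26267 and 22491 normalized counts in control libraries, 35427 and 42179 in midkine 3 and 4, and 18572 in midkine 5. Midkine 5 thus had the lowest value of the 6 libraries, below every control, and midkine 3 and 4 the highest. The log2 fold change was 0.39 ± 0.299 (SE) with all libraries, 0.74 without midkine 5, 0.15 without midkine 4 and 0.14 with quantile normalization. Ctsc, which activates granule serine proteases, Ctsh, an aminopeptidase, and Ctsz, a carboxypeptidase, were higher in all 3 midkine libraries than in any control, with log2 fold changes of 0.74, 0.38 and 0.52 (Ctsz 0.34 without midkine 5). Ctsf was near the lower limit of detection, with 10.3 to 13.3 normalized counts in control and 7.26 to 21.1 in midkine libraries.

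Among the remaining proteases and the thiol reductase, 3 of 5 genes did not overlap between the groups and were higher with midkine (15.5% of all genes tested), and the group median was 0.61 (0.70 without midkine 5; 0.36 with quantile normalization). Ctsd encodes cathepsin D, the main aspartic protease of lysosomes (chromosome 7, 142375911 to 142388038, minus strand). Its normalized counts were 23946, 30157 and 22658 in control and 38232, 44184 and 48120 in midkine libraries. All midkine values exceeded the highest control, with a log2 fold change of 0.77 ± 0.190 (SE), which was 0.27 with quantile normalization. Tpp1, a tripeptidase whose loss causes a childhood neuronal ceroid lipofuscinosis, had 508, 548 and 481 in control and 807, 1064 and 1101 in midkine libraries. Its groups were separated by more than the range within the controls (log2 fold change 0.94 ± 0.167 SE).

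Ctsa encodes cathepsin A, which protects beta-galactosidase and neuraminidase 1 in a complex. It had 3258, 3487 and 2805 normalized counts in control and 4715, 4190 and 4551 in midkine libraries, with no overlap (log2 fold change 0.50 ± 0.149 SE). Ifi30, the interferon-inducible thiol reductase GILT that opens disulfide bonds of antigens, overlapped between the groups. It had 336 to 432 normalized counts in control, 624 and 791 in midkine 3 and 4 and 402 in midkine 5. Ctse, an aspartic protease found mostly in endosomes, was low, with 24.6 to 39.9 in control and 23.6 to 46.4 in midkine libraries.

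Glycosidases remove sugars from glycoproteins, glycolipids and glycosaminoglycans. The median log2 fold change of the 11 genes was 0.49 (0.43 without midkine 5), and 6 of them did not overlap, all higher with midkine (15.5% of all genes tested). The most abundant was Hexa, the alpha subunit of beta-hexosaminidase, which breaks down GM2 ganglioside and is lost in Tay-Sachs disease. It had 1934, 2293 and 1634 normalized counts in control and 2839, 3068 and 5499 in midkine libraries. The groups did not overlap, and midkine 5 lay well above midkine 3 and 4 (log2 fold change 0.91 ± 0.264 SE; 0.61 without midkine 5).

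Gaa encodes acid alpha-glucosidase, which degrades glycogen in lysosomes and is lost in Pompe disease (chromosome 11, 119267887 to 119285454, plus strand). Its normalized counts were 97.4, 89.0 and 138 in control and 171, 211 and 424 in midkine libraries. All midkine libraries were above the highest control, and midkine 5 was about as far above midkine 4 as midkine 4 was above the controls on the log2 scale. The log2 fold change was 1.22 ± 0.338 (SE), but 0.83 without midkine 5. Neu1, the lysosomal sialidase, had 386, 452 and 389 in control and 543, 648 and 1436 in midkine libraries. Its log2 fold change was 0.97 ± 0.331 (SE), and 0.54 without midkine 5, where midkine 3 and 4 still lay above every control.

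Gusb, the beta-glucuronidase, showed a similar order, with 829 to 890 normalized counts in control, 1136 and 1295 in midkine 3 and 4 and 2194 in midkine 5 (log2 fold change 0.77, and 0.48 without midkine 5). Glb1, the beta-galactosidase, and Idua, which removes iduronic acid from heparan and dermatan sulfate, also did not overlap, with log2 fold changes of 0.43 and 0.49. For Idua the highest control (92.0) and the lowest midkine library (94.7) were close. Gla, the alpha-galactosidase lost in Fabry disease, had 188 to 253 normalized counts in control, 381 and 502 in midkine 3 and 4 and 240 in midkine 5. Naglu, which acts on heparan sulfate, had 324 to 446 in control and 403 to 517 in midkine libraries. Man2b1, the main alpha-mannosidase, had 1393, 1506 and 1355 in control and 1516, 1746 and 1101 in midkine libraries. The groups overlapped, with midkine 5 lowest and midkine 4 highest, and the log2 fold change was 0.01 ± 0.189 (SE). Fuca1, the alpha-fucosidase, and Manba, the beta-mannosidase, had log2 fold changes of 0.10 and 0.02 and overlapped (0.21 and 0.38 without midkine 5).

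Sulfatases remove sulfate groups from glycosaminoglycans and sulfolipids. They were the least abundant class, with 0.0135 ± 0.000752% of the summed normalized counts in control and 0.0175 ± 0.00284% with midkine, and 2 of 5 did not overlap, both higher. With so few genes this count is not far from all genes tested, of which 30.8% did not overlap and 15.5% were higher. Sgsh, which acts on heparan sulfate, had 261, 257 and 214 normalized counts in control and 453, 361 and 300 with midkine (log2 fold change 0.59 ± 0.193 SE). Midkine 5 was closest to the controls. Arsa, which removes sulfate from sulfatides, had 55.4, 43 and 29.6 in control and 61.9, 82.3 and 91.7 in midkine libraries. The gap between the highest control and midkine 3 was small beside the range of the controls (log2 fold change 0.89 ± 0.278 SE). Ids, an iduronate sulfatase, overlapped between the groups, with 310, 297 and 394 in control and 405, 393 and 332 with midkine (log2 fold change 0.18 ± 0.172 SE; 0.10 without control 2 and 0.31 without control 4). Galns and Arsb, sulfatases of keratan and dermatan sulfate, overlapped as well, with log2 fold changes of 0.47 and 0.09 (Arsb 0.36 without midkine 5).

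Genes of lipid breakdown and transport had a median log2 fold change of 0.53 (0.49 without midkine 5, 0.29 with quantile normalization), and 4 of 6 did not overlap, all higher, against 15.5% higher among all genes tested. Psap encodes prosaposin, the precursor of 4 small activator proteins (saposins) of sphingolipid hydrolases (chromosome 10, 60277627 to 60302597, plus strand). Its normalized counts were 42949, 49933 and 41867 in control and 59840, 67351 and 67579 in midkine libraries. All midkine values exceeded all control values, by a log2 fold change of 0.53 ± 0.176 (SE), but the fold change was 0.09 with quantile normalization. Lipa, the acid lipase that hydrolyses cholesteryl esters and triglycerides, had 1976, 2256 and 1836 in control and 3584, 4087 and 2484 in midkine libraries. Midkine 5 was only slightly above control 2, while midkine 3 and 4 were far above it (log2 fold change 0.72 ± 0.206 SE; 0.92 without midkine 5).

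Npc1 and Npc2 hand cholesterol out of the lysosome, as a membrane protein and a soluble carrier. Npc1 had 586, 694 and 567 normalized counts in control and 915, 1150 and 834 in midkine libraries, with no overlap (log2 fold change 0.64 ± 0.172 SE). Npc2 had 13367, 13181 and 12448 in control and 15769, 15101 and 10924 in midkine libraries. It overlapped, because midkine 5 lay below every control, and its log2 fold change was 0.08 ± 0.184 (SE). Smpd1, the acid sphingomyelinase, did not overlap (log2 fold change 0.53). Asah1, the acid ceramidase, had 519 to 574 normalized counts in control, 595 and 647 in midkine 3 and 4 and 274 in midkine 5. Its negative log2 fold change of −0.20 thus came with midkine 3 and 4 above, and midkine 5 below, every control, and was 0.20 without midkine 5.

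Lamp1 and Lamp2, heavily glycosylated proteins that line the lysosomal membrane, were both higher in every midkine library than in any control, as were 6 of 8 genes of membrane proteins and progranulin in all (15.5% of all genes tested). The median log2 fold change of these 8 genes was 0.39, and 0.24 with quantile normalization. Lamp1 had 9152, 9642 and 9168 normalized counts in control and 12751, 13600 and 11347 in midkine libraries. The controls lay within a narrow range and midkine 5 was the closest to it (log2 fold change 0.43 ± 0.149 SE; 0.17 with quantile normalization). Lamp2 had a log2 fold change of 0.44 ± 0.140 (SE). Laptm4a, a small transmembrane protein of late endosomes and lysosomes, had 1925, 2170 and 1705 in control and 2994, 3539 and 3556 in midkine libraries. Its groups were separated by more than the range of the controls (log2 fold change 0.80 ± 0.156 SE).

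Scarb2 encodes LIMP-2, which carries glucocerebrosidase to lysosomes. It had 825, 956 and 819 normalized counts in control and 1225, 1482 and 1362 in midkine libraries, with no overlap (log2 fold change 0.65 ± 0.148 SE). Laptm5, a lysosomal protein of blood cells, and Cd164, a sialomucin of endosomes and lysosomes, did not overlap but had smaller log2 fold changes of 0.25 and 0.35 (Laptm5 0.12 without midkine 5). Their groups nearly touched, with the highest control and the lowest midkine library at 8226 and 8259 for Laptm5 and 516 and 534 for Cd164. Mcoln1, a calcium channel of lysosomes, had 90.7 to 116 in control, 130 and 125 in midkine 3 and 4 and 67.2 in midkine 5, with a log2 fold change of −0.05 (0.25 without midkine 5). Grn encodes progranulin, which is cut into granulins in lysosomes. It had 16389, 17263 and 13794 in control and 22328, 17244 and 10435 in midkine libraries. The 3 midkine libraries were spread more widely than the controls, with midkine 3 the highest and midkine 5 the lowest of the 6, and the log2 fold change was 0.01 ± 0.274 (SE).

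Midkine 5 differed from midkine 3 and 4 in its pattern over the genes more than in their median. Midkine 4 was above the control mean for 43 of 43 genes, midkine 3 for 42 and midkine 5 for 32. In 10 of the 42 genes for which midkine 3 and 4 lay on the same side of the control mean (23.8%), midkine 5 lay on the other side, against 32.5% of all such genes tested. These were Ctss, Ctsf, Ctse, Man2b1, Fuca1, Arsb, Asah1, Npc2, Grn and Mcoln1. Midkine 5 was the highest of the 6 libraries for 18 genes (41.9%; 34.6% of all genes tested) and the lowest for 11 (25.6%; 33.7%). Without it, 39 of 43 genes did not overlap between the groups, all higher with midkine, against 47.7% of all genes tested (23.8% higher and 23.9% lower).

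Other genes of the lysosome were examined from lists drawn up by function. By limma with all 6 libraries, 0 genes of any of these lists passed. Their counts without overlap stand against 15.5% higher and 15.3% lower among all genes tested. Of 26 other hydrolases, 14 were higher and 1 lower without overlap between the groups (median log2 fold change 0.41). Galc, which degrades galactosylceramide, had 287 to 370 normalized counts in control and 494 to 645 with midkine. Ctsk, cathepsin K, was low, with 5.13 to 12.3 in control and 29.0 to 30.9 with midkine. Its log2 fold change was 1.64, and 1.31 with 5 instead of 1 added to each count. The gene that was lower without overlap was Ppt1, a thioesterase, with a log2 fold change of −0.11 (−0.07 without midkine 5). Of 21 other membrane proteins, 12 were higher and 1 lower without overlap (median 0.53). Cd63, a tetraspanin of late endosomes, had 6295 to 6977 in control and 11561 to 15846 in midkine libraries. Cd68, a macrophage glycoprotein of the LAMP family, had log2 fold change 0.78, and Slc15a3, a peptide transporter, 0.72. The lower gene was Laptm4b, with 80.9 to 92.0 and 66.7 to 77.1.

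V-ATPase subunits, which form the proton pump that acidifies lysosomes, showed a median of 0.64 on the same log2 scale over 17 genes, and 12 were higher and 0 lower without overlap. Atp6v1a, Atp6v1e1 and Atp6v1c1, subunits of its cytosolic sector, had log2 fold changes of 0.84, 0.78 and 0.75. Without midkine 5, limma called 15 of the 17 higher and 0 lower, against 9.86% and 8.53% of all genes tested. That fit called 12 of the 26 other hydrolases and 12 of the 21 other membrane proteins higher, and 0 of either lower. Genes of sorting to lysosomes had a lower median of 0.35 over 13 genes (0.24 without midkine 5), with 4 higher and 1 lower without overlap. These counts rest on few genes and stand beside 15.5% higher and 15.3% lower among all genes tested. Limma without midkine 5 called 6 of the 13 higher and 0 lower. M6pr, the cation-dependent mannose 6-phosphate receptor, had 657 to 725 normalized counts in control and 832 to 1031 in midkine libraries. Gnptg and Vps29, a subunit of the enzyme that makes the mannose 6-phosphate tag and a retromer subunit, had log2 fold changes of 0.63 and 0.70. Gnptab, the catalytic partner of Gnptg, was the gene lower without overlap, with a log2 fold change of −0.13 (−0.05 without midkine 5).

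**Figure D4:**
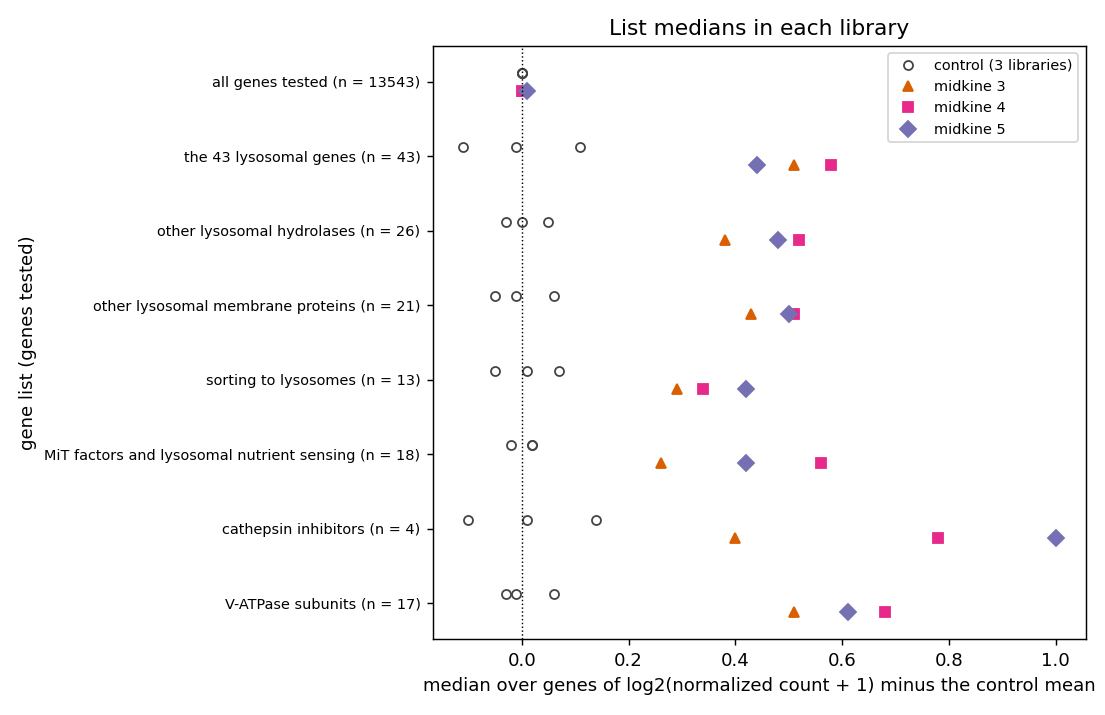
Median over the genes of each list of the difference from the control mean on the log2(normalized count + 1) scale (horizontal axis) in control libraries (open circles) and midkine 3, 4 and 5 (filled symbols). For all genes tested every library lies at or near 0, while the midkine medians of the 43 genes are 0.44 to 0.58 and those of V-ATPase subunits 0.51 to 0.68.

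MiT factors and the nutrient-sensing machinery on the lysosomal surface had a median of 0.46 over 18 genes, with 9 higher and 1 lower without overlap. Without midkine 5, limma called 9 of the 18 higher and 1 lower (9.86% and 8.53% of all genes tested). The factors themselves differed from each other. Mitf was higher in all midkine libraries, with 279 to 374 normalized counts in control and 394 to 662 with midkine. Tfeb had 341 to 384 in control, 412, 361 and 859 with midkine, the last in midkine 5, and Tfe3 had a log2 fold change of −0.20 (−0.06 without midkine 5). Tfec overlapped, with 115 to 136 in control and 136, 184 and 270 with midkine (log2 fold change 0.60, and 0.34 without midkine 5). These factors were named after their values were seen, as the regulators of the element shown above. Fnip2, a partner of folliculin, had a log2 fold change of 0.78, and Lamtor1, which anchors the Ragulator complex to lysosomes, 0.72. Rragb, a Rag GTPase, was the lower gene, with 16.8 to 20.5 normalized counts in control and 12.6, 2.11 and 0.908 in midkine 3, 4 and 5, the last of which is a single read. Among 4 tested inhibitors of cysteine cathepsins, Cstb (stefin B) had 1091 to 1210 in control and 2010, 2940 and 4408 in midkine libraries, a log2 fold change of 1.37. Cst7 overlapped, with 214 to 223 in control, 149 and 141 in midkine 3 and 4 and 468 in midkine 5. Its log2 fold change was −0.03, and −0.59 without midkine 5, where limma called it lower. Cst3, the secreted cystatin C, overlapped (log2 fold change 0.36; 0.10 without midkine 5 and 0.55 without midkine 3), and so did the stefin Stfa2l1 (1.29), of a family with close gene copies whose reads may be split between them.

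Markers of several cell types also stood at different levels in the groups. Their counts without overlap stand against 15.5% higher and 15.3% lower among all genes tested. Counts in the lists of 6 or fewer markers rest on few genes. Of 11 macrophage markers, 6 were higher and 0 lower without overlap. The summed level of all 11 was 17325 to 23752 normalized counts in control and 24329 to 26509 in midkine libraries, and Cd5l was its largest part in every library. C1qa, Mertk and Adgre1 were among the 6, with log2 fold changes of 0.65, 1.00 and 0.85, while Csf1r had −0.08 and Cd5l 0.04 (0.17 and −0.11 without midkine 5). Of 12 neutrophil markers, 8 were higher (summed level 126886 to 141876 and 181127 to 195269), and most of that sum was S100a8 and S100a9. Of 9 conventional dendritic cell markers, 7 were lower and 0 higher (6613 to 7220 and 4474 to 5401), and most of that sum was Irf8. Of 6 markers of mast cells, basophils and eosinophils, 4 were higher (952.7 to 1184 and 1728 to 2660), and most of that sum was Prg2. Of 6 B cell markers 3 were higher (883.7 to 1248 and 1012 to 1965), and of 6 plasmacytoid dendritic cell markers 3 were lower (5367 to 5972 and 4124 to 4672). Of 4 stromal markers, 2 were lower (594.2 to 1075 and 320.9 to 493.8), of 3 erythroid markers 1 was higher (48.21 to 70.02 and 86.23 to 139.3), and 2 T and NK cell markers overlapped. Of 5 osteoclast markers, Acp5 and Ctsk, enzymes that macrophages also make, were higher, but Ctsk had at most 12.3 normalized counts in control. Dcstamp overlapped, with a log2 fold change of 0.32 (0.02 without midkine 5), and Calcr had no row. Ocstamp had at most 6.15 normalized counts in any library and was at 0 in midkine 3. No other marker of these cell types with a row was at 0 in any library. The part of these cell types in the values of the 43 genes was not tested.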

How the data were processed

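QuantSeq 3′ FWD libraries were made from 6 samples of cultured cells, per the labels' protocols. Reads were handled with HTSeq, DESeq2, SAMtools 0.1.19, TopHat2 2.0.10, FastQC 0.11.0 and Bowtie 1.0.0 on GRCm38 (mm10), per the submitters' processing notes. Annotation, strand setting and gene filter were not given in the sources used here. The table deposited by the authors holds a signal at or above 0, namely normalized counts for each gene symbol. Within a library all values shared 1 step, as counts scaled by a size factor do, and whole reads were recovered for 100% of values within 0.01 reads. Intervals (Wilson, 95%) cover counting error only.

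The main test was limma 3.58.1 in R 4.3.3 (eBayes with trend) on log2(normalized count + 1), over 13543 genes with a mean of at least 5, two-sided, Benjamini-Hochberg over all genes, threshold 0.05. This scale understates the change of low genes. Alternatives on the recovered reads were DESeq2 1.42.0, in which 3894 of 15443 genes had no adjusted p, and edgeR 4.0.16 (TMM and the quasi-likelihood test). Other settings changed the pseudocount, filter, scaling, variance trend and libraries; edgeR without midkine 5 was added after the data were seen. Scripts were tested on simulated data. Libraries of a group differed by more than sampling noise.

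The 43 genes and all lists were chosen with earlier results of these data known. Values are given per library for the 2 most abundant genes of each role and the 2 with the largest absolute fold change among those with a mean of at least 20. Up to 3 genes per pathway list were named, those with the smallest p, and further ones after their values were seen. A gene named by this rule is not reported here. Coordinates are from GENCODE M21 (all 43 genes matched), and promoter sequences from RefSeq on GRCm38.p6. Figures were drawn with matplotlib 3.10.9.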

Additional observations from a re-analysis of the deposited data

How the results depend on the processing

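The median log2 fold change of the 43 genes (0.50) was 0.39 with quantile normalization and 0.456 to 0.612 when 1 library at a time was left out. The number of genes past the threshold (0) was 15 with DESeq2, 27 by limma without midkine 5 and 28 by edgeR without midkine 5, and 0 in each of the other limma fits that left out 1 library. The number of genes higher in every midkine library (27) was 21 with quantile normalization and 26 with upper-quartile scaling and with edgeR. It was 41 by edgeR without midkine 5 and 27 to 39 when 1 library was left out. The number lower was 0 in every setting tried. Fewer libraries separate more easily, and the share higher among all genes tested rose from 15.5% with 6 libraries to 23.8% without midkine 5. For the other settings this share was not computed. The ratio of summed levels (1.43) was 1.17 with quantile normalization and 1.38 to 1.51 when 1 library was left out. Fold changes near 0 changed sign: Grn had −0.13 with quantile normalization, −0.04 with upper-quartile scaling, −0.08 without control 4, −0.23 without midkine 3 and −0.04 without midkine 4 (up to 0.32 without midkine 5); Man2b1 had −0.08 and −0.04 with these 2 scalings, and −0.00041, −0.02, −0.03 and −0.13 without control 1, control 4, midkine 3 and midkine 4 (up to 0.2 without midkine 5); and Npc2 had −0.17 with quantile normalization and −0.02 without midkine 3 (up to 0.25 without midkine 5). The cause of these changes was not tested. The other 19 of the 22 genes given with every library's value kept their sign in each setting tried. The median fold change of all genes tested moved by less than 0.1 under each scaling. Genes with few reads, such as Ctsf, Ctse and Manba, were limited by depth. No paired analysis was possible because the groups share only replicate number 4.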
